A study of Homo sapiens with 9 samples.

Results

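The 10 genes described here, CCN1, CCN2, ANKRD1, AMOTL2, AJUBA, LATS2, AXL, TEAD1, CRIM1 and F3, are genes commonly used as readouts of the transcriptional coactivators YAP and TAZ. They were taken by their symbols from a deposited table of 20379 genes, and all 10 passed the filter on low counts. The choice of these genes was made with earlier results of these data known. The table comes from HCCLM3, an established human hepatocellular carcinoma cell line. Cells were transfected with siRNA against UXS1 (3 libraries), with siRNA against MRPL42 (3 libraries) or with a non-targeting control siRNA (3 libraries). The UXS1 siRNA and MRPL42 siRNA groups are called knockdowns here after the siRNA given. UXS1 is the enzyme that makes UDP-xylose, and MRPL42 is part of the mitochondrial ribosome. The sources used here do not give the number of siRNA sequences per target or the time of harvest. All 3 groups are 1 cell line. No label ties the repeats to separate cultures, and p-values then measure only how far these libraries spread, which may be technical.

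YAP and TAZ do not bind DNA themselves. They enter the nucleus when the Hippo kinases MST1/2 and LATS1/2 are inactive, bind TEAD transcription factors and switch on genes for secreted matrix proteins, cytoskeletal regulators and surface receptors. When LATS kinases are active they phosphorylate YAP and TAZ, which are then held in the cytoplasm or degraded. Several targets act back on the pathway, among them LATS2 and AMOTL2, and the liver is a tissue in which YAP is known to control organ size and tumour growth.

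The sequences just before the start sites of CCN2, ANKRD1 and AMOTL2 are shown because each holds the letters that TEAD factors recognise, in CCN2, which lay below control in every knockdown library, in ANKRD1, which lay above it, and in AMOTL2, a regulator of YAP itself. They are the 250 bases before a RefSeq start on GRCh38.p14, read 5′ to 3′ on the strand of the gene. Capitals mark GGAATG, or CATTCC where the match lies on the opposite strand. All 3 genes lie on the minus strand, CCN2 at chr6:131951373-131951622, ANKRD1 at chr10:90921088-90921337 and AMOTL2 at chr3:134374448-134374697.
CCN2: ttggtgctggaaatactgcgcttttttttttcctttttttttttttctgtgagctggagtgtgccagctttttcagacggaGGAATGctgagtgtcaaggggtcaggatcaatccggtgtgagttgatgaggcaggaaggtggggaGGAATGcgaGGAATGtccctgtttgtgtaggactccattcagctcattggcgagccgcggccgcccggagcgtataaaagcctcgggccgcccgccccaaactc
ANKRD1: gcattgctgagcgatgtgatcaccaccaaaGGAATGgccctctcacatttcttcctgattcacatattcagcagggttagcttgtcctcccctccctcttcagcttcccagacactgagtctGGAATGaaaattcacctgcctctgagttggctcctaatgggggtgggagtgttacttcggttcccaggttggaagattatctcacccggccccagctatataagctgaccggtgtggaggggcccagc
AMOTL2: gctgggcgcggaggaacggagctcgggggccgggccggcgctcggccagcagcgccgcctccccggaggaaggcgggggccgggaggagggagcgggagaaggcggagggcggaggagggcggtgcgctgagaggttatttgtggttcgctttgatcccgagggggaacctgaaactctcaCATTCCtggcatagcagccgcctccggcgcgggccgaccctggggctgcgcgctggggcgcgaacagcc
Counted from the start site as +1, the first base of each match lay at -169, -104 and -95 in CCN2, at -220 and -128 in ANKRD1 and at -69 in AMOTL2. AJUBA had a match at -59, LATS2 at 10 and AXL at -212. AMOTL2, AJUBA and AXL each have another window, at another start, that held no GGAATG. The AJUBA match belongs to the start at 22976842 and not to that at 22982551. The AXL match belongs to the start at 41226755 and not to that at 41219223. Of the members, 7 were in the RefSeq promoter table, with 10 windows of 300 bases (250 before the start and 50 after it), and CCN1, TEAD1 and CRIM1 were not. GGAATG, searched on both strands, stood in at least 1 window of 6 of these 7 genes and in 6 of the 10 windows. Among all promoters in the table it stood in 14.0% of 35116 windows and in 16.7% of 27305 genes. TGANTCA, a loose pattern for AP-1 sites that allows any base at N, does not overlap GGAATG in these windows. It matched ANKRD1 at -195 (TGATTCA) and F3 at -223 (TGAATCA) and -210 (TGAGTCA). Of all genes, 9.37% held this loose pattern. The CArG box bound by SRF was found in none of the 7 genes, against 1.60% of all genes. These are letter matches in reference sequence and say nothing about binding in these cells.

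Libraries held totals of 15265959 to 22400560 estimated counts. Control library c stood apart: its correlation of log2 CPM (a gene's counts scaled to the library's size) with the other libraries was 0.956 to 0.967, against 0.985 or more among the other 8. In it the hepatocyte marker list stood at -0.78 relative to its mean over the 9 libraries on the log2 scale (0.03 to 0.17 in the other 8). Of a list of nuclear-retained and histone RNAs only 6 genes, all of them histone genes, were tested. In control library c their mean stood at 0.92 (-0.52 and -0.40 in control libraries a and b, -0.07 to 0.04 in the 6 knockdown libraries). Each member's comparison with control siRNA is therefore given with and without that library, and list genes are given without it where their value moved by over 1.5 times or changed side. UXS1 itself had 141 ± 3.43 CPM in UXS1 siRNA libraries, against 158 ± 18.8 in control libraries (SD, n = 3 each), a log2 fold change of -0.17 with an adjusted p of 0.348 from edgeR (-0.08 without control library c). MRPL42 had 93.1 ± 11.3 CPM in MRPL42 siRNA libraries, against 122 ± 23.4 in control libraries (SD, n = 3 each), a log2 fold change of -0.39 with an adjusted p of 0.185 from edgeR (-0.24 without control library c). Neither target passed the threshold of 0.05, so the groups are called by the siRNA in their labels. The word knockdown names the siRNA given and not a shown fall of its target. As to cell type, levels per transcript length (CPM per kilobase) were 2229 to 3444 for KRT8 and 8.20 to 17.2 for HNF4A, while ALB stood at 1.59 to 6.35 and AFP at 0.662 to 1.08. The fibroblast markers PDGFRA and THY1 and the endothelial marker CDH5 were at 0 in all 9 libraries. Other markers of such cells were present, with DCN at 8.30 to 11.7, LUM at 11.8 to 91.9, PECAM1 at 2.82 to 5.65 and CD68 at 38.3 to 69.0. Among the hepatocyte and liver cancer markers EPCAM stood at 0.180 to 0.375, APOA1 at 0 to 0.441 and TTR at 0.0610 to 0.415. The 18 markers of fibroblasts, endothelium and leukocytes summed to 72.9 to 92.8 CPM per kilobase in 8 libraries and to 178 in control library c, where LUM alone gave 91.9. Hepatocyte and liver cancer markers summed to 4043 in control library c and to 3401 and 3234 in control libraries a and b. In the 6 knockdown libraries they summed to 3526 to 4656.

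Levels can be set between genes only per length, here as CPM divided by the length in kilobases of the principal transcript in the GENCODE annotation. TEAD1 was the most abundant member and LATS2 the least. TEAD1 averaged 41.9 ± 1.57 CPM per kilobase in UXS1 siRNA libraries, 41.9 ± 3.24 in MRPL42 siRNA libraries and 46.4 ± 5.85 in control libraries (SD, n = 3 each). AJUBA, AMOTL2 and CRIM1 came next, at group means of 15.7 to 25.6 CPM per kilobase. CCN2 averaged 11.0 ± 1.03 CPM per kilobase in UXS1 siRNA libraries, 11.9 ± 0.711 in MRPL42 siRNA libraries and 15.6 ± 1.60 in control libraries. CCN1 followed, over 6.28 to 6.93 in UXS1 siRNA libraries, 7.22 to 8.44 in MRPL42 siRNA libraries and 7.12 to 9.31 in control libraries.

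In UXS1 siRNA libraries the ranges of neighbours in this order did not overlap. In MRPL42 siRNA libraries AJUBA overlapped AMOTL2, CCN1 overlapped ANKRD1 and F3 overlapped AXL. In control libraries AMOTL2, CRIM1 and CCN2 overlapped one another, as did CCN1 and F3, and ANKRD1 overlapped F3, AXL and LATS2. LATS2, at 1.49 ± 0.0683, 1.77 ± 0.121 and 1.88 ± 0.108 CPM per kilobase, lay below every other member except ANKRD1 in control library c. The order at the top depends on the length chosen: with the longest transcript of each gene, a choice made after seeing the data, TEAD1 averaged 15.2, 15.2 and 16.8 CPM per kilobase and stood beside AJUBA, CRIM1 and AMOTL2, because its longest transcript has 8477 bases and its principal one 3075.

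**Figure D1:**
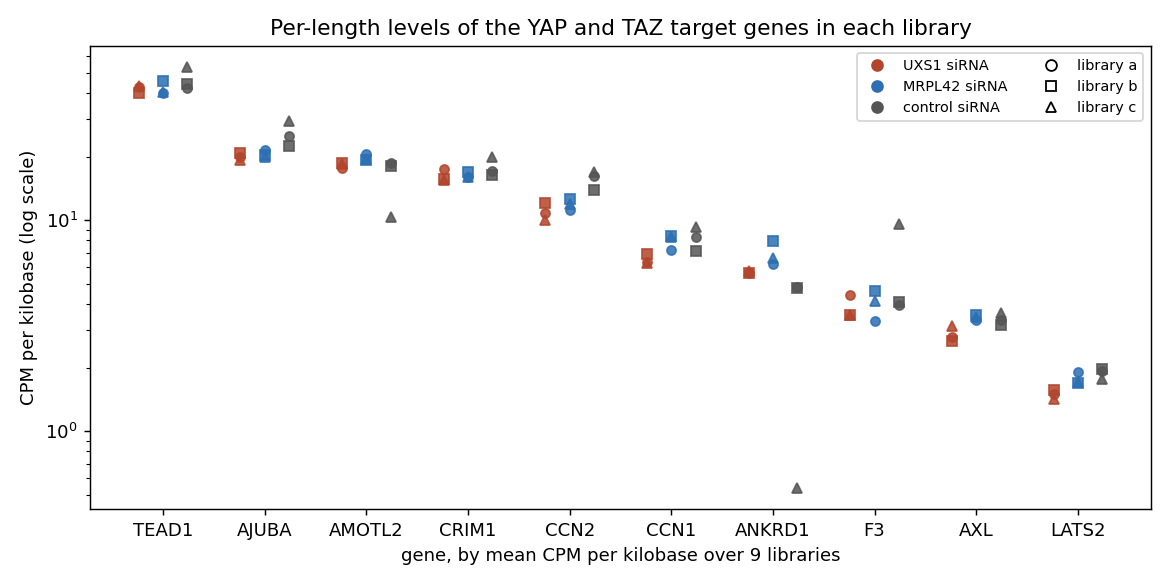
CPM per kilobase of principal transcript (log axis) for the 10 YAP and TAZ target genes in order of their mean, 1 point per library, with UXS1 siRNA, MRPL42 siRNA and control siRNA from left to right within each gene. TEAD1 sits highest and LATS2, at 1.42 to 1.96, lowest apart from ANKRD1 in control library c at 0.536.

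No member passed the adjusted threshold in any of the 3 comparisons. In UXS1 siRNA against control siRNA, 0 of 10 were called, where 0.0158% of the 12657 genes tested were called (2 genes, both lower). In MRPL42 siRNA against control siRNA, 0 of 10 were called, where 0% of genes were, and in UXS1 siRNA against MRPL42 siRNA, 0 of 10 were called, where 0% of genes were. DESeq2 on the same counts called CCN2 and AJUBA lower in UXS1 siRNA, where it called 1.28% of the genes with an adjusted p lower, and CCN2 lower in MRPL42 siRNA, where it called 1.39% lower. At an unadjusted p below 0.05 in edgeR, 5 members passed in UXS1 siRNA against control (17.8% of all genes did), 2 in MRPL42 siRNA against control (20.2%) and 3 in UXS1 siRNA against MRPL42 siRNA (1.72%). With control library c left out, 0 members were called in each comparison. In that fit 1.58% of all genes were called in UXS1 siRNA (1.07% lower and 0.502% higher), 1.33% in MRPL42 siRNA (0.792% lower and 0.533% higher) and 0% between the knockdowns. At an unadjusted p below 0.05 the members that passed were then 5 (19.2% of all genes), 3 (19.6%) and 5 (5.35%), in the same order of comparisons. Both comparisons with control share the control libraries, and the comparison between knockdowns shares the UXS1 siRNA and MRPL42 siRNA libraries with them.

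Fold changes of the members leaned below 0. In UXS1 siRNA against control, 8 of 10 lay below 0 with a median log2 fold change of -0.29, against a median of -0.00 over all genes tested. In MRPL42 siRNA against control, 7 of 10 lay below 0 with a median of -0.11, against -0.01. In UXS1 siRNA against MRPL42 siRNA all 10 lay below 0 with a median of -0.11, against -0.00, although TEAD1, CRIM1 and F3 sat within 0.07 of 0 and turned above it in some alternatives. Of all genes, 51.0%, 52.1% and 51.4% lay below 0 in the 3 comparisons. Leaving out control library c brought the UXS1 siRNA median against control to -0.14 and the MRPL42 siRNA median to -0.02. The members below 0 were then 9, 6 and 10, where 51.8%, 52.3% and 53.8% of all genes were.

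Every UXS1 siRNA library lay below every control library in 5 members (CCN1, CCN2, AJUBA, LATS2 and AXL), as in 10.9% of all genes, and above in 1 (ANKRD1), as in 15.3%. Every MRPL42 siRNA library lay below every control library in 2 members (CCN2 and AJUBA), as in 10.5% of all genes, and above in 2 (ANKRD1 and AMOTL2), as in 11.0%. Against control libraries a and b only, 5 and 3 members lay below, where 18.5% and 17.5% of genes did, and 1 and 2 lay above, where 22.2% and 16.4% did.

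**Figure D2:**
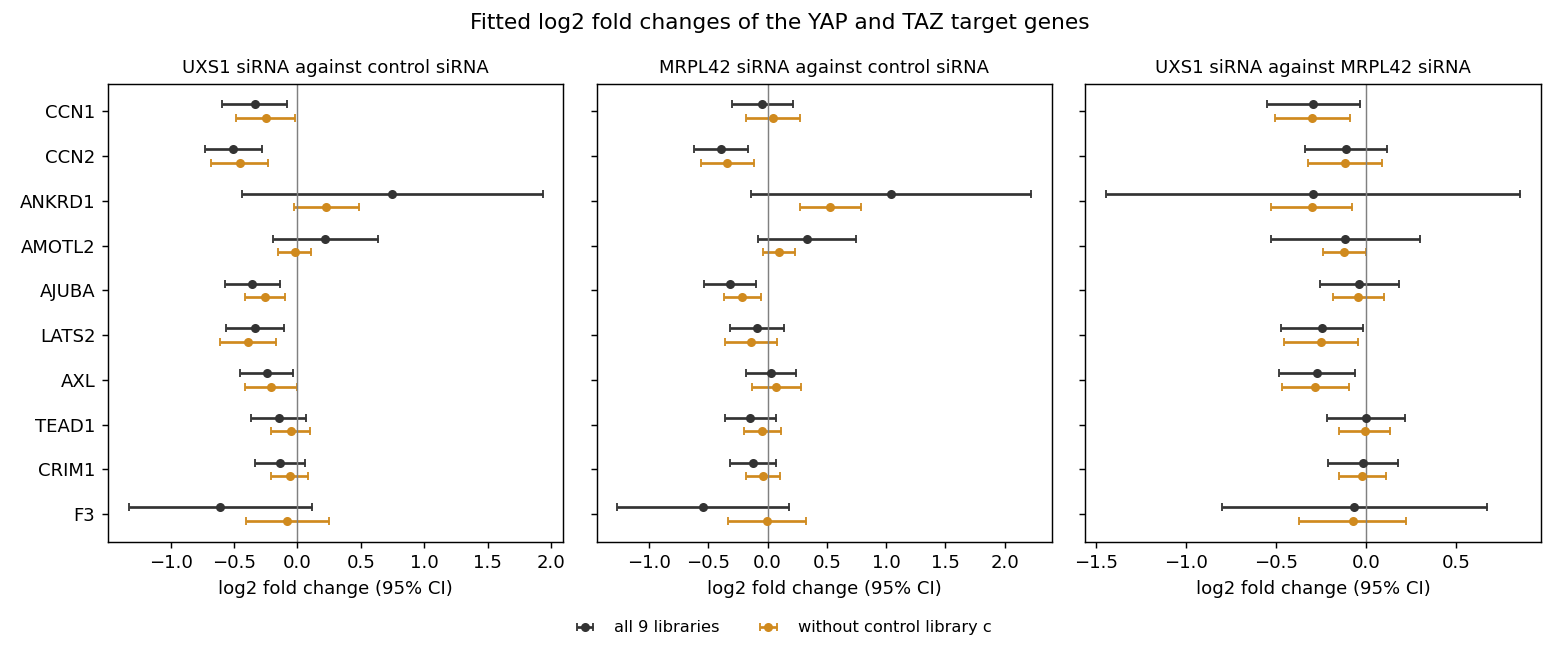
Fitted log2 fold changes with 95% intervals (horizontal axis) for each gene in the 3 comparisons, from all 9 libraries (dark) and without control library c (orange). CCN2 and AJUBA keep intervals below 0 against control in both knockdowns, and the wide ANKRD1 and F3 intervals narrow when control library c is left out.

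CCN1 and CCN2 encode secreted matricellular proteins of the CCN family and are the most used YAP and TAZ readouts. CCN1 (ENSG00000142871, chromosome 1, 85580761 to 85583962, plus strand, GRCh38) had 14.6, 15.9 and 14.4 CPM in UXS1 siRNA libraries, 16.5, 19.3 and 19.1 in MRPL42 siRNA libraries and 19.0, 16.3 and 21.3 in control libraries. The UXS1 siRNA values lay below every library of the other groups, while MRPL42 siRNA and control overlapped. The log2 fold change was -0.34 (SE 0.11, adjusted p = 0.206 by edgeR) in UXS1 siRNA and -0.04 (SE 0.11, adjusted p = 0.842) in MRPL42 siRNA, in each case against control, and -0.29 between the knockdowns (95% interval -0.55 to -0.04, unadjusted p = 0.0300 by edgeR). Leaving out control library c gave -0.25 (adjusted p = 0.229) in UXS1 siRNA and turned the MRPL42 siRNA value to the other side, at 0.05. CCN2 (ENSG00000118523, chromosome 6, 131948176 to 131951373, minus strand) carried the lowest unadjusted p among the members against control with all 9 libraries. Without control library c this held in UXS1 siRNA, while ANKRD1 came first in MRPL42 siRNA.

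CCN2 had 25.3, 28.3 and 23.5 CPM in UXS1 siRNA libraries, 26.2, 29.5 and 27.7 in MRPL42 siRNA libraries and 37.7, 32.3 and 39.5 in control libraries. All 6 knockdown libraries lay below all 3 control libraries. The log2 fold change was -0.51 (SE 0.10, 95% interval -0.73 to -0.28) in UXS1 siRNA, or 0.705 of the control level, with an adjusted p of 0.152 by edgeR. In MRPL42 siRNA it was -0.39 (SE 0.10, 95% interval -0.62 to -0.17), or 0.761 of the control level, with an adjusted p of 0.135. These were -0.46 (adjusted p = 0.0576) in UXS1 siRNA and -0.34 (adjusted p = 0.110) in MRPL42 siRNA without control library c. The knockdowns themselves overlapped, at -0.11 (95% interval -0.34 to 0.12). CCN2 shares 195 exonic bases with an antisense gene, AL133346.1. No source used here says if strand was kept, so reads of such pairs cannot be told apart.

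**Figure D3:**
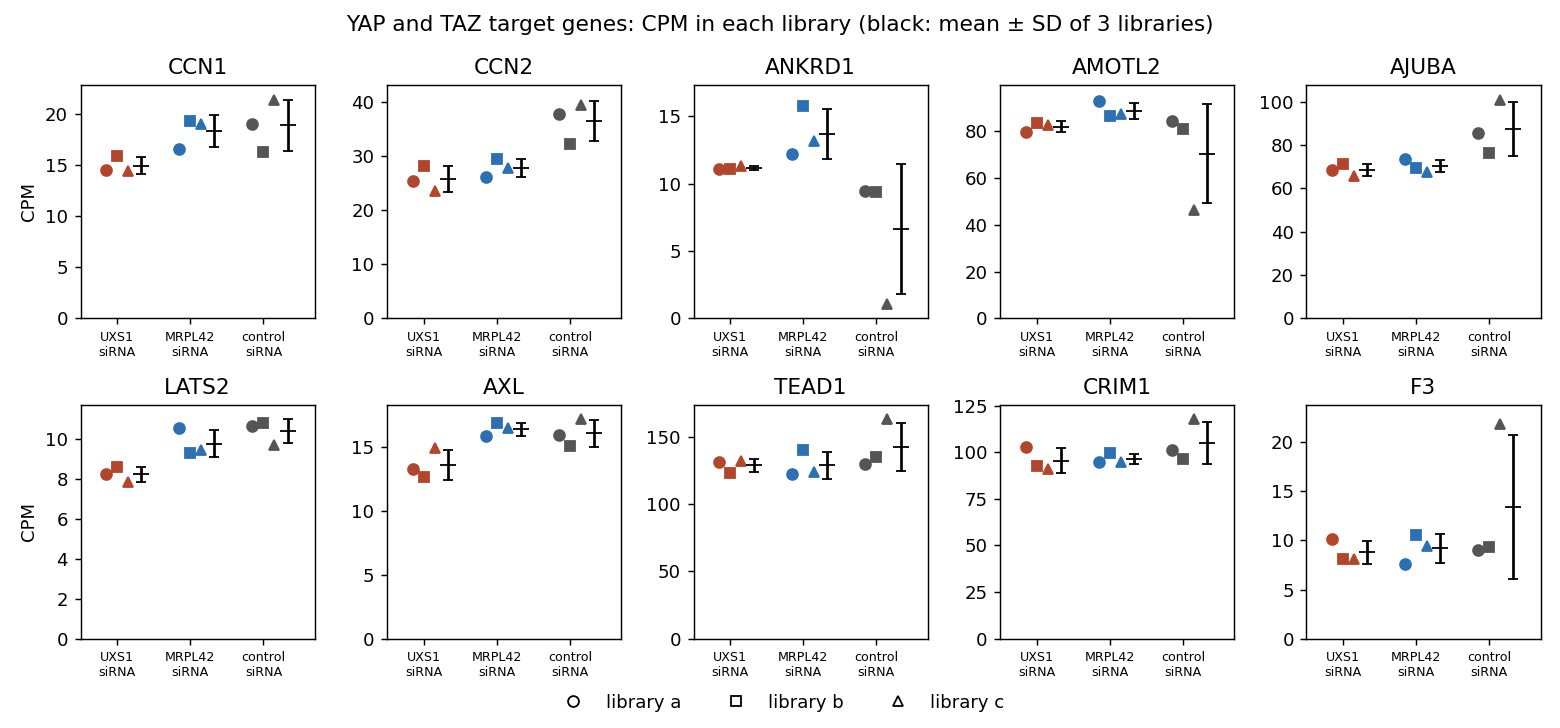
CPM of the 10 genes, 1 panel per gene with its own linear axis from 0 and 1 point per library, with bars for the mean and SD of UXS1 siRNA, MRPL42 siRNA and control siRNA (n = 3 each). The 3 control points of CCN2 sit at 32.3 to 39.5 CPM, above the knockdown points at 23.5 to 29.5; ANKRD1 and F3 each have 1 control library far from the other 2.

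ANKRD1 (ENSG00000148677, chromosome 10, 90912096 to 90921276, minus strand) encodes an ankyrin repeat protein found in the nucleus and, in muscle, in the sarcomere. It had 11.1, 11.1 and 11.3 CPM in UXS1 siRNA libraries, 12.2, 15.8 and 13.1 in MRPL42 siRNA libraries and 9.49, 9.40 and 1.06 in control libraries, the last from 20 counts in control library c. Each knockdown library lay above every control library, and each UXS1 siRNA library lay below every MRPL42 siRNA library. The log2 fold change was 0.75 (SE 0.53, adjusted p = 0.480 by edgeR) in UXS1 siRNA and 1.04 (SE 0.53, adjusted p = 0.289) in MRPL42 siRNA. Without control library c it was 0.23 (adjusted p = 0.318) in UXS1 siRNA and 0.53 (adjusted p = 0.0591) in MRPL42 siRNA. ANKRD1 thus lay on the other side of control from CCN2 in every library.

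AMOTL2, AJUBA and LATS2 encode proteins that act on the pathway itself. AMOTL2 (ENSG00000114019, chromosome 3, 134355874 to 134375479, minus strand), an angiomotin family protein that binds YAP and holds it at cell junctions, had 79.3, 83.5 and 82.6 CPM in UXS1 siRNA libraries, 92.5, 86.3 and 86.9 in MRPL42 siRNA libraries and 84.0, 80.6 and 46.2 in control libraries. With control library c the log2 fold change against control was 0.22 in UXS1 siRNA (adjusted p = 0.557 by edgeR) and 0.33 in MRPL42 siRNA (adjusted p = 0.324), and without it -0.02 and 0.10. AMOTL2 shares 187 exonic bases with the pseudogene RPL39P5, which is not among the deposited genes. How reads of the shared bases were counted is not known. LATS2 (ENSG00000150457, chromosome 13, 20973032 to 21061547, minus strand), the kinase that phosphorylates YAP and TAZ, had 8.25, 8.58 and 7.83 CPM in UXS1 siRNA libraries, 10.5, 9.31 and 9.45 in MRPL42 siRNA libraries and 10.6, 10.8 and 9.71 in control libraries. UXS1 siRNA lay below both other groups, with a log2 fold change of -0.33 (SE 0.10, adjusted p = 0.178 by edgeR) against control and -0.25 against MRPL42 siRNA. In MRPL42 siRNA LATS2 was at -0.09 (adjusted p = 0.619) against control. Leaving out control library c gave -0.39 (adjusted p = 0.0877) in UXS1 siRNA and -0.14 in MRPL42 siRNA.

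AJUBA (ENSG00000129474, chromosome 14, 22971174 to 22982642, minus strand), a LIM protein that binds LATS kinases and limits their activity, had 68.3, 71.3 and 65.7 CPM in UXS1 siRNA libraries, 73.4, 69.6 and 67.7 in MRPL42 siRNA libraries and 85.6, 76.3 and 101 in control libraries. As for CCN2, all 6 knockdown libraries lay below all 3 control libraries. The log2 fold change was -0.36 (SE 0.10, adjusted p = 0.174 by edgeR) in UXS1 siRNA and -0.32 (SE 0.10, adjusted p = 0.145) in MRPL42 siRNA. These were -0.25 (adjusted p = 0.111) and -0.21 (adjusted p = 0.136) without control library c. AJUBA shares 50 exonic bases with AL132780.3, which is in the table.

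AXL, CRIM1 and F3 encode cell surface proteins. AXL (ENSG00000167601, chromosome 19, 41219203 to 41261766, plus strand), a receptor tyrosine kinase bound by GAS6, had 13.2, 12.6 and 14.9 CPM in UXS1 siRNA libraries, 15.8, 16.8 and 16.4 in MRPL42 siRNA libraries and 15.9, 15.1 and 17.1 in control libraries. UXS1 siRNA lay below both other groups, with -0.24 (SE 0.09, adjusted p = 0.233 by edgeR) against control and -0.27 (95% interval -0.48 to -0.06, unadjusted p = 0.0167 by edgeR) against MRPL42 siRNA. MRPL42 siRNA was at 0.03 (adjusted p = 0.869) against control, and leaving out control library c gave -0.21 in UXS1 siRNA and 0.07 in MRPL42 siRNA. AXL shares 67 exonic bases with an antisense gene. CRIM1 (ENSG00000150938, chromosome 2, 36355926 to 36551135, plus strand), a transmembrane protein that binds bone morphogenetic proteins, ranged over 91.1 to 103 CPM in UXS1 siRNA libraries, 94.9 to 99.4 in MRPL42 siRNA libraries and 96.1 to 118 in control libraries, and all groups overlapped. Its log2 fold change was -0.14 in UXS1 siRNA and -0.12 in MRPL42 siRNA against control and -0.01 between the knockdowns. Against control it was -0.06 and -0.04 without control library c. CRIM1 shares 177 exonic bases with an antisense gene. F3 (ENSG00000117525, chromosome 1, 94529225 to 94541800, minus strand), tissue factor, the receptor that starts coagulation by binding factor VII, had 10.1, 8.14 and 8.09 CPM in UXS1 siRNA libraries, 7.56, 10.5 and 9.45 in MRPL42 siRNA libraries and 9.03, 9.35 and 21.9 in control libraries. The log2 fold change of F3 against control was -0.61 in UXS1 siRNA and -0.55 in MRPL42 siRNA (adjusted p = 0.351 by edgeR in each), but -0.08 and -0.01 without control library c.

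TEAD1 (ENSG00000187079, chromosome 11, 12674591 to 12944483, plus strand), the DNA-binding partner of YAP and TAZ, had 131, 123 and 132 CPM in UXS1 siRNA libraries, 123, 140 and 124 in MRPL42 siRNA libraries and 130, 135 and 163 in control libraries. Its log2 fold change was -0.15 in each knockdown against control and -0.00 between the knockdowns (95% interval -0.22 to 0.21). Against control it was -0.05 in each knockdown without control library c. Control library c held the highest value of the 9 for CCN1, CCN2, AJUBA, AXL, TEAD1, CRIM1 and F3, and the lowest for ANKRD1 and AMOTL2.

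In UXS1 siRNA against MRPL42 siRNA the control libraries enter the filter, the scaling and the shared spread but neither group mean. In 5 members, CCN1, ANKRD1, AMOTL2, LATS2 and AXL, every UXS1 siRNA library lay below every MRPL42 siRNA library, an order that 4.31% of all genes showed, and 0 members lay in the opposite order, which 5.79% of genes showed. The sizes were small, from -0.11 in AMOTL2 to -0.29 in CCN1 and ANKRD1, and the lowest adjusted p by edgeR was 0.9998. MRPL42 siRNA library b held the highest value of its group for CCN1, CCN2, ANKRD1, AXL, TEAD1, CRIM1 and F3. Without it ANKRD1 was at -0.18, and the number of members below 0 was 7 in place of 10. The order of the 5 members cannot change when a library is left out, so it is no further check. Of all genes, 14.9% had every UXS1 siRNA library below both remaining MRPL42 siRNA libraries.

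**Figure D4:**
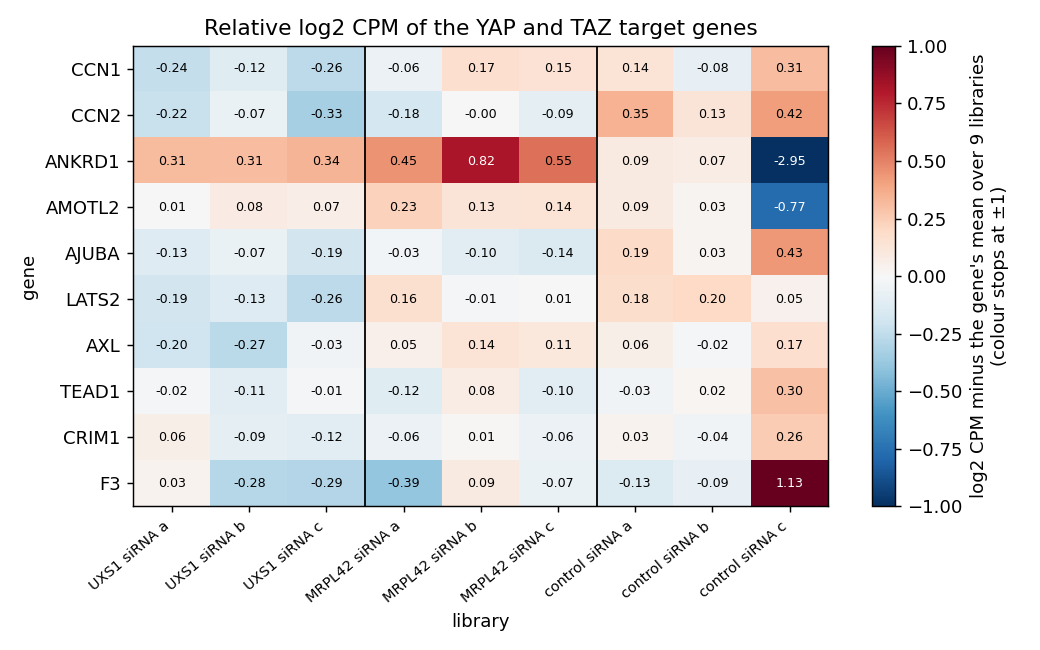
Log2 CPM of each gene in each library minus that gene's mean over the 9 libraries (colour, limited at 1 in either direction, with the value printed), libraries in columns by group. CCN1, CCN2, AJUBA, LATS2, AXL and TEAD1 are below 0 in all 3 UXS1 siRNA libraries, and ANKRD1 in control library c is at -2.95.

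Lists of related genes, chosen with earlier results of these data known, were counted for the same comparisons, with no test of a list. With all 9 libraries no gene of any list passed the threshold. The other YAP and TAZ signature genes had 11 of 19 tested genes below 0 in UXS1 siRNA (median -0.04), 9 in MRPL42 siRNA (median 0.02) and 12 between the knockdowns (median -0.04). IGFBP3, an IGF binding protein, was at 0.44 in UXS1 siRNA and 0.13 in MRPL42 siRNA. NT5E, an ectonucleotidase, was at -0.25 in MRPL42 siRNA (-0.16 without control library c). In the fit without that library 13 and 9 of the signature genes lay below 0 against control, with medians of -0.02 and 0.03. There IGFBP3 rose in UXS1 siRNA (0.58, adjusted p = 0.0330 by edgeR) and was at 0.28 in MRPL42 siRNA. AMOTL1, an angiomotin family member, was at 0.49 between the knockdowns.

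The Hippo kinase arm and its upstream inhibitors had 21 of 29 genes below 0 in UXS1 siRNA (median -0.09), 20 in MRPL42 siRNA (median -0.07) and 18 between the knockdowns (median -0.02), and none passed with or without control library c. Leaving it out gave 20 and 20 below 0 against control, with medians of -0.02 and -0.04, and brought FAT1 in UXS1 siRNA to -0.17. Among them, with all 9 libraries, the cadherin FAT1 and the kinase TAOK3 were at -0.35 and -0.24 in UXS1 siRNA, the kinase STK4, known as MST1, and FRMD6 were at -0.19 and 0.27 in MRPL42 siRNA, and MOB1B and SAV1, cofactors of the kinases, were at 0.35 and 0.24 between the knockdowns. Coactivators and TEAD partners had 6, 8 and 5 of 12 below 0 (medians -0.05, -0.04 and 0.02), and without control library c 9 and 9 against control (medians -0.05 and -0.07). SMARCB1, a chromatin remodeller subunit, was at 0.21 in UXS1 siRNA and 0.27 in MRPL42 siRNA, and VGLL4, which competes with YAP for TEAD, was at -0.14 and -0.15. Between the knockdowns TEAD4 was at -0.20 and TEAD3 at -0.11. YAP1 itself, named here for its role after its values were seen, was at -0.11 in UXS1 siRNA and -0.19 in MRPL42 siRNA, and WWTR1, which encodes TAZ, at 0.07 and 0.03. Without control library c YAP1 was at -0.01 and -0.09 and WWTR1, on the other side, at -0.05 and -0.08. Activators of YAP and the Ajuba family had 11, 12 and 6 of 15 below 0 (medians -0.09, -0.17 and 0.02), and without control library c 10 and 13 against control (medians -0.03 and -0.09). With all 9 libraries the values of smallest p were SRC at -0.22 (-0.14 without control library c) and ILK at 0.13 in UXS1 siRNA, YES1 at -0.27 and ILK at 0.15 in MRPL42 siRNA, and SIKE1 and MOB4, parts of the phosphatase complex that opposes MST kinases, at 0.27 and 0.24 between the knockdowns.

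AP-1 subunits, which bind many YAP enhancers beside TEAD, had 6 of 8 genes below 0 in UXS1 siRNA (median -0.42), 6 in MRPL42 siRNA (median -0.31) and 8 between the knockdowns (median -0.09). FOS was at -0.59 in UXS1 siRNA and -0.47 in MRPL42 siRNA, ATF3 at -0.38 and -0.37, and FOSL1 at -0.26 between the knockdowns. Without control library c 6 and 5 AP-1 genes lay below 0 against control, with medians of -0.21 and -0.02, and FOS fell in UXS1 siRNA (-0.65, adjusted p = 0.0193 by edgeR). Cytoskeletal targets of SRF and MRTF had 14, 12 and 16 of 18 below 0 (medians -0.15, -0.05 and -0.11). Without control library c 13 and 8 of 18 lay below 0 against control, and the median was -0.09 in UXS1 siRNA and turned to 0.03 in MRPL42 siRNA. TAGLN, an actin-binding protein, was at 0.76 in UXS1 siRNA and 0.83 in MRPL42 siRNA when all 9 libraries were used, opposite in side to most of its list, and with control library c left out it rose in both (0.61, adjusted p = 0.0442, and 0.68, adjusted p = 0.0314, by edgeR). FLNA was at -0.32 in UXS1 siRNA, TPM2 at 0.29 in MRPL42 siRNA, and ZYX and MYH9 at -0.20 and -0.14 between the knockdowns. The other CCN family and coagulation partners had 5, 6 and 3 of 9 below 0 (medians -0.00, -0.09 and 0.08), and without control library c 6 and 8 against control (medians -0.05 and -0.07). F7, which encodes factor VII, the ligand of F3, was at -0.91 in UXS1 siRNA and -0.99 in MRPL42 siRNA but at only 0.755 to 1.51 CPM as group means, F2RL1 was at -0.77 and -0.66 (-0.27 and -0.14 without control library c), and TFPI2 and TFPI, inhibitors of the F3 pathway, were at 0.27 and 0.08 between the knockdowns.

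The lists that check cell type and RNA had no called gene with all 9 libraries. Hepatocyte markers had 4, 3 and 6 of 13 below 0 (medians 0.19, 0.19 and 0.02). Without control library c 5 and 8 lay below 0 against control, with medians of 0.04 and -0.07, so the MRPL42 siRNA median changed side. With all 9 libraries FOXA2 was at -0.38 and AFP at 0.39 in UXS1 siRNA, AFP was at 0.44 and KRT8 at 0.27 in MRPL42 siRNA, and SERPINA1 was at 0.53 and KRT18 at -0.10 between the knockdowns. Fibroblast, endothelial and leukocyte markers had 2, 2 and 3 of 7 below 0 (medians 0.24, 0.21 and 0.03), and without control library c 2 and 3 against control (medians 0.10 and 0.01). LYZ was at 0.92 and LUM at -1.51 in UXS1 siRNA (0.50 and 0.16 without control library c), LUM at -1.64 in MRPL42 siRNA (0.04 without it) and CD68 at 0.21 there, and LYZ at 0.57 and PECAM1 at 0.13 between the knockdowns. Without control library c, CD68, which encodes a lysosomal protein, rose in both knockdowns (0.44, adjusted p = 0.00727, and 0.54, adjusted p = 0.00368, by edgeR). Nuclear-retained and histone RNAs had 4, 4 and 2 of 6 below 0 (medians -0.16, -0.27 and 0.09), but without control library c 0 and 0 lay below 0 against control and the medians turned to 0.45 and 0.34. H2BC21 was at -0.77 and H2AC6 at -0.30 in UXS1 siRNA (0.00 and 0.22 without that library), they were at -0.76 and -0.46 in MRPL42 siRNA (0.03 and 0.06), and H2BC4 and H2AC6 at -0.27 and 0.16 between the knockdowns.

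The genes whose profiles over the 9 libraries were most like those of CCN1 and CCN2 were found by the root mean square difference of centred log2 CPM, among 10477 genes outside the members with a mean of 5 CPM or more. For CCN1 they were TGFB1 (0.0514), MTSS2 (0.0667) and LPCAT4 (0.0668), and for CCN2 they were SOX13 (0.0652), DUSP4 (0.0737) and EPHA2 (0.0841). Over the 8 libraries other than control library c, SOX13 and DUSP4 stayed first and second for CCN2, while REXO1, FOSL1 and FIZ1 came first for CCN1 and TGFB1 had rank 4. Within the members, AXL was nearest to CCN1 (0.116) and AJUBA nearest to CCN2 (0.104), and ANKRD1 was furthest from both (1.17 and 1.24).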

How the data were processed

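Polyadenylated RNA of 9 HCCLM3 libraries was sequenced. The submitters' processing notes list HISAT2, Bowtie2, fastp, edgeR and hg38, without versions or roles, and the sources used here name no counting program. The authors' deposited table gives estimated counts per gene, not scaled for depth or length. From 83.6% to 84.9% of nonzero values per library were whole. Another 9 columns of TPM were not used, so levels between genes, planned on them, are CPM per kilobase of the principal GENCODE transcript. Columns were assigned to groups by name, in which the UXS1 columns have letters exchanged. The tests had been planned for raw counts, so estimated counts were rounded to whole numbers.

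edgeR 4.0.16 in R 4.3.3 fitted 1 mean per group over all 9 libraries after filterByExpr and TMM, with the two-sided quasi-likelihood test and Benjamini-Hochberg adjustment over 12657 genes (threshold 0.05). The script was tested on simulated data. CPM used TMM-scaled totals. DESeq2 1.42.0 and limma 3.58.1 were alternatives. SE is the log2 fold change divided by the square root of F.

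The members and lists were chosen with earlier results of these data known. Named genes are all members, the siRNA targets, list genes past the threshold or the 2 of smallest p in each comparison, and the 3 genes nearest to CCN1 and to CCN2. Gene coordinates and overlaps are from the GENCODE annotation of GRCh38, promoters from RefSeq. A list gene that the rule would name is not reported here.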

Additional observations from a re-analysis of the deposited data

How the results depend on the processing

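The number of genes called changed with the libraries used and with the tool. In UXS1 siRNA against control, 2 genes were called, against 460 by DESeq2 (314 higher and 146 lower), 8 with a transcript length offset, 253 with only the 6 libraries compared, 1206 with control library c and library b of MRPL42 siRNA both left out, 317 with the length offset and no control library c, and 0 to 355 when 1 library was left out (201 without control library c, 355 without MRPL42 siRNA library b). In MRPL42 siRNA against control, 0 were called, against 677 by DESeq2, 2 with the length offset, 1856 with both libraries left out, 292 with the length offset and no control library c, and 0 to 810 when 1 library was left out (169 without control library c, 810 without MRPL42 siRNA library b). Between the knockdowns 0 were called, and 1 with both libraries left out. Members called in UXS1 siRNA, all lower, were 2 by DESeq2, where 1.28% of genes were lower. With both libraries left out they were 3 (CCN2, AJUBA and LATS2), where 417 of 12741 genes were lower. With the length offset and no control library c CCN2 alone was called, where 189 of 12747 genes were lower. When 1 library was left out, CCN2 alone was called, in 1 of 9 fits. That fit left out MRPL42 siRNA library b, and in it 38 of 12787 genes were lower. In MRPL42 siRNA 1 was called by DESeq2, where 1.39% of genes were lower. With both left out 2 were called, CCN2 lower and ANKRD1 higher, where 597 of 12741 genes were lower and 1259 higher. CCN2, AJUBA, ANKRD1, TEAD1 and F3 each kept their direction against control in all 18 alternatives in each knockdown. F3 came as near to 0 as -0.0062 in MRPL42 siRNA, and the alternatives share libraries. The cause of the changes in the number of genes called was not tested.

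The member median in UXS1 siRNA against control was -0.14 with both libraries left out and -0.12 with the length offset and no control library c, and -0.31 to -0.14 when 1 library was left out. In MRPL42 siRNA it was 0.011 with the length offset and no control library c. Between the knockdowns it was -0.18 to -0.087 when 1 library was left out. Single members changed side as follows. With both libraries left out, AMOTL2 in UXS1 siRNA was -0.022, CCN1 in MRPL42 siRNA 0.0069, and CRIM1, F3 and TEAD1 between the knockdowns 0.0040, 0.031 and 0.059. With the length offset and no control library c, CCN1 and CRIM1 in MRPL42 siRNA were 0.039 and 0.037, and CRIM1 in UXS1 siRNA 0.0027. With the length offset alone LATS2 in MRPL42 siRNA was 0.0026, and with limma-voom TEAD1 between the knockdowns was 0.0015. When 1 library was left out, AMOTL2 in UXS1 siRNA ranged over -0.022 to 0.37, AXL in MRPL42 siRNA over -0.013 to 0.073, CCN1 in MRPL42 siRNA over -0.14 to 0.047, and between the knockdowns CRIM1 over -0.072 to 0.019, F3 over -0.19 to 0.043 and TEAD1 over -0.042 to 0.065.

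Column letters were tried as a replicate block. Same-letter libraries correlated at -0.27 to 0.13 in their deviations from group means, so the letters are not taken to pair the samples, and with the block 0 genes were called in UXS1 siRNA against control, with 0 members called and member medians of -0.29, -0.10 and -0.11. LATS2, F3 and ANKRD1, at about 10 CPM, rest on 20 to 412 counts per library.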
